A study of Rattus norvegicus with 15 samples.

Results

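The genes described here encode integrins and the proteins of focal adhesions, the sites where a cell grips the matrix around it. They were chosen by gene symbol: any probe set with a single symbol that begins with Itga or Itgb followed by a digit or by l, m or x, the talins, parvins and kindlins (Fermt), and Vcl, Zyx, Pxn, Ilk, Ptk2, Ptk2b, Bcar1, Src, Tns1, Lims1, Lims2 and Vasp. The rule found 69 probe sets of 42 genes among 31042 probe sets and 14217 genes with a single symbol on the array. It also takes in 4 genes that share the name but encode no subunit, Itgb1bp1, Itgb1bp2, Itgb3bp and Itgbl1, and it leaves out the subunit genes Itgav, Itgae and Itgad, which were read as part of a list of related genes.

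Expression was measured on Affymetrix 3' arrays in testes from LBNF1 rats (a first-generation cross of laboratory strains) that were 25 to 27 weeks old. The 5 irradiated samples are labelled as collected after irradiation and the 10 control samples as collected before it. The protocol field gives 6 Gy to the lower abdomen in the same words for every sample, and no label says how long after the dose the testes were taken. The labels call the samples biological replicates but do not name the rats they came from, and the p-values measure only how these samples spread, which may be technical.

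An integrin is a pair of an alpha and a beta subunit that spans the membrane and binds matrix proteins such as laminin, fibronectin or collagen outside the cell. Inside, talin and kindlin bind the tail of the beta subunit and switch the receptor on, vinculin and tensin tie it to actin, and the complex of integrin-linked kinase, PINCH (Lims1, Lims2) and parvin adds a further link. Focal adhesion kinase (Ptk2), Src, paxillin (Pxn) and p130Cas (Bcar1) carry signals from these sites. In the testis, integrins hold Sertoli and peritubular myoid cells to the basement membrane of the tubule, and the integrin of alpha6 and beta1 is also part of the contact between Sertoli cells and elongating spermatids and a surface marker of spermatogonial stem cells.

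Values are log2 signals, 1 per probe set and array, with an unknown zero point, so that a value below 0 does not mean absence. The array medians lay between -1.38 and -1.26 in irradiated and between -1.61 and -1.37 in control arrays. A probe set was tested if it reached its array's median on at least 5 of the 15 arrays, and one below that median on every array of a group is called dim in that group, where its level has only an upper bound. The signal of the 3' actin probe set minus that of the 5' one, a difference that grows as RNA degrades, was 0.90 to 1.16 in irradiated and 0.65 to 1.89 in control arrays, with control replicates 6, 7 and 8 highest at 1.89, 1.37 and 1.44. Without these 3 arrays 19 member genes rose and 6 fell, the same counts as with them, while the median change of the members was 0.64 in place of 0.91. The tissue held its defining cells in the control group: genes of spermatids summed to a linear signal of 2.33 to 5.37 in irradiated and 428 to 644 in control arrays.

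The beta1 integrin gene Itgb1, the alpha subunit genes Itga6 and Itga9, vinculin and kindlin-2 were higher in irradiated testes, with no overlap between the groups, while paxillin, p130Cas and the leukocyte integrins Itgb2, Itgal and Itgb7 did not pass the test. Of 42 genes, 35 passed the filter and were tested, each through its probe set with the highest mean over all arrays. With limma and Benjamini-Hochberg adjustment over all 10841 genes tested, 19 rose, 6 fell and 10 did not pass an adjusted p of 0.05. Over all genes tested, 47.7% rose and 37.9% fell, 85.6% in either direction, so that a member's call by itself says little. The members' share of rises lay near that of all genes, and their share of falls lay below it. Of the genes called in either direction, 76% of the members and 55.7% of all genes rose, and this difference was not tested. Itga8, Itga9 and Itgbl1 passed the filter only through irradiated arrays, and Parvg and Itgb1bp2 only through control arrays, so that a difference in these is partly built in by the filter. The same holds for further probe sets of Fermt2 (1384182_at) and Itga6 (1393558_at), through irradiated arrays, and of Tln2 (1375743_at), through control arrays. Itga1, Itga7, Lims2 and Parva reached the median on 2, 1, 2 and 4 control arrays, and also needed irradiated arrays to pass. At the level of probe sets, 49 of 69 were tested, 29 rose and 9 fell, against 49% and 34.3% of all probe sets tested, 83.4% in either direction. The median change of the 35 genes was 0.91 on the log2 scale, beside 0.20 for all genes tested. With every value held at no less than its array's median, it was 0.37, beside 0.18 for all genes tested. In measured values without irradiated replicate 1, the members' median was 0.59, beside 0.19 for all genes tested. In 17 genes every irradiated array lay above every control array and in 4 below, where 40.5% and 29% of all genes tested did so (69.5% without overlap). Among member probe sets, 26 of 49 lay wholly above and 5 wholly below, against 41.3% and 24.2% of all probe sets tested (65.5% without overlap).

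**Figure D1:**
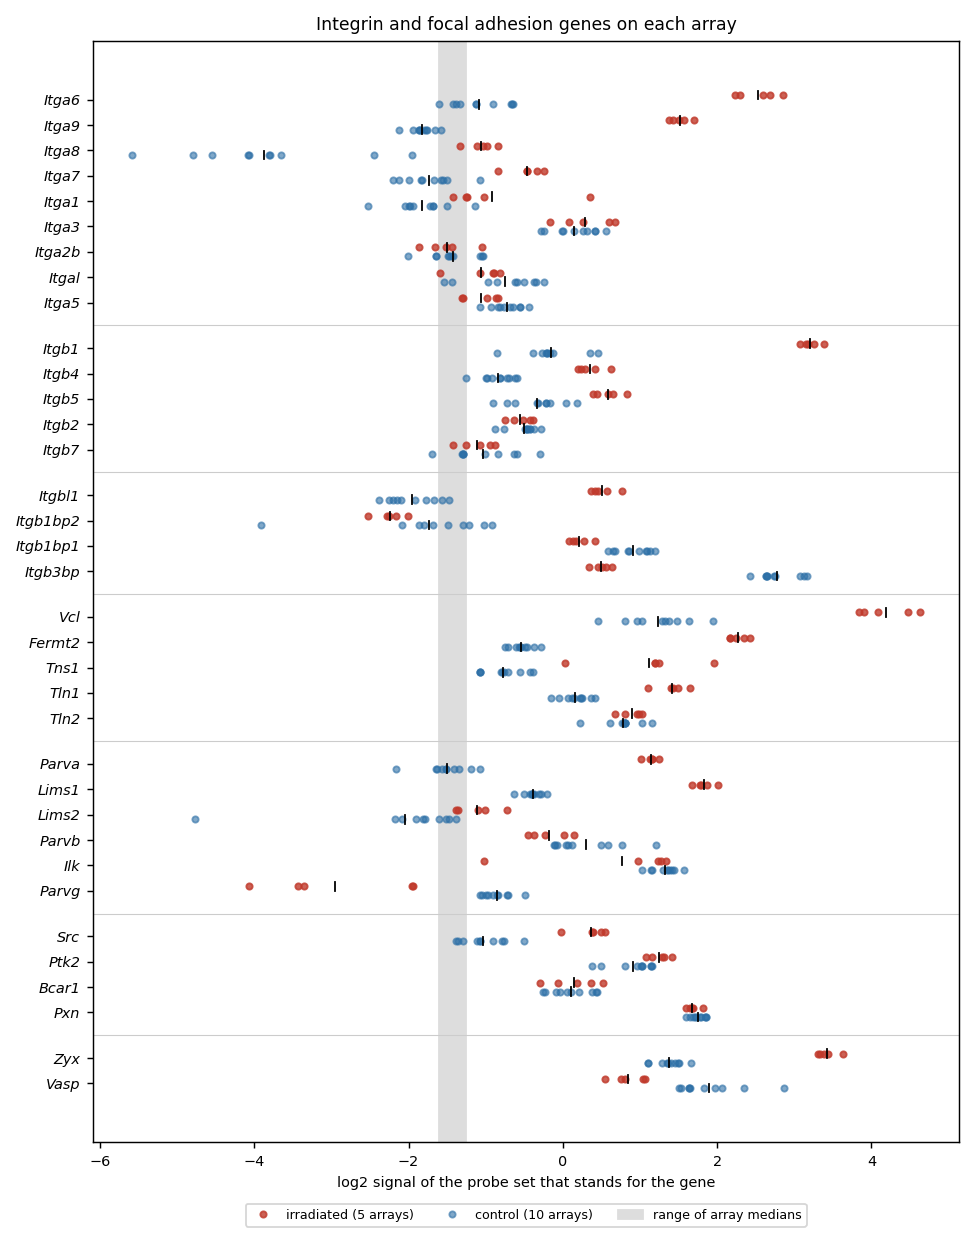
Log2 signals (horizontal axis) of the 35 tested genes, 1 row per gene, grouped by role, with the 5 irradiated arrays in red above the 10 control arrays in blue and a black bar at each group's mean. The grey band is the range of array medians; Itgb1, Vcl and Fermt2 show no overlap, and Pxn, Bcar1 and Itgb2 overlap fully or nearly so.

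Markers of somatic cells were higher and markers of meiotic and later germ cells lower in irradiated testes, beside the changes of the adhesion genes. Fewer cells of a type and less RNA per cell cannot be told apart in bulk tissue. The Sertoli cell marker list rose in 17 of 17 tested genes, with a median change of 1.88 and a summed linear signal of 194 to 266 in irradiated against 52.6 to 70 in control arrays. Of the markers of peritubular myoid and smooth muscle cells 13 of 14 rose, with a median of 1.88 and a sum of 52.7 to 62.6 in irradiated against 13.5 to 17 in control arrays. Genes of spermatocytes fell in 8 of 8 and those of spermatids in 15 of 15. Of these, 8 and 9 were dim in every irradiated array and passed the filter only through control arrays. In every control array 1 Sertoli and 3 myoid or smooth muscle markers were dim, and these passed only through irradiated arrays. The differences in such genes are partly built in by the filter. Of all genes tested, 47.7% rose and 37.9% fell. When each array was centred on its Sertoli cell markers, the members split into 6 higher and 24 lower in place of 19 and 6, while all genes tested had a median change of -1.97. After quantile normalization the split was 17 and 10. The 6 genes higher on the Sertoli-centred scale were Itga6 at 1.45, Itgb1 at 1.21, Vcl at 0.79 and Fermt2 at 0.64, and Itga9 and Parva, whose control levels are only bounds and which get no size on that scale. Changes are given below on the deposited scale.

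**Figure D2:**
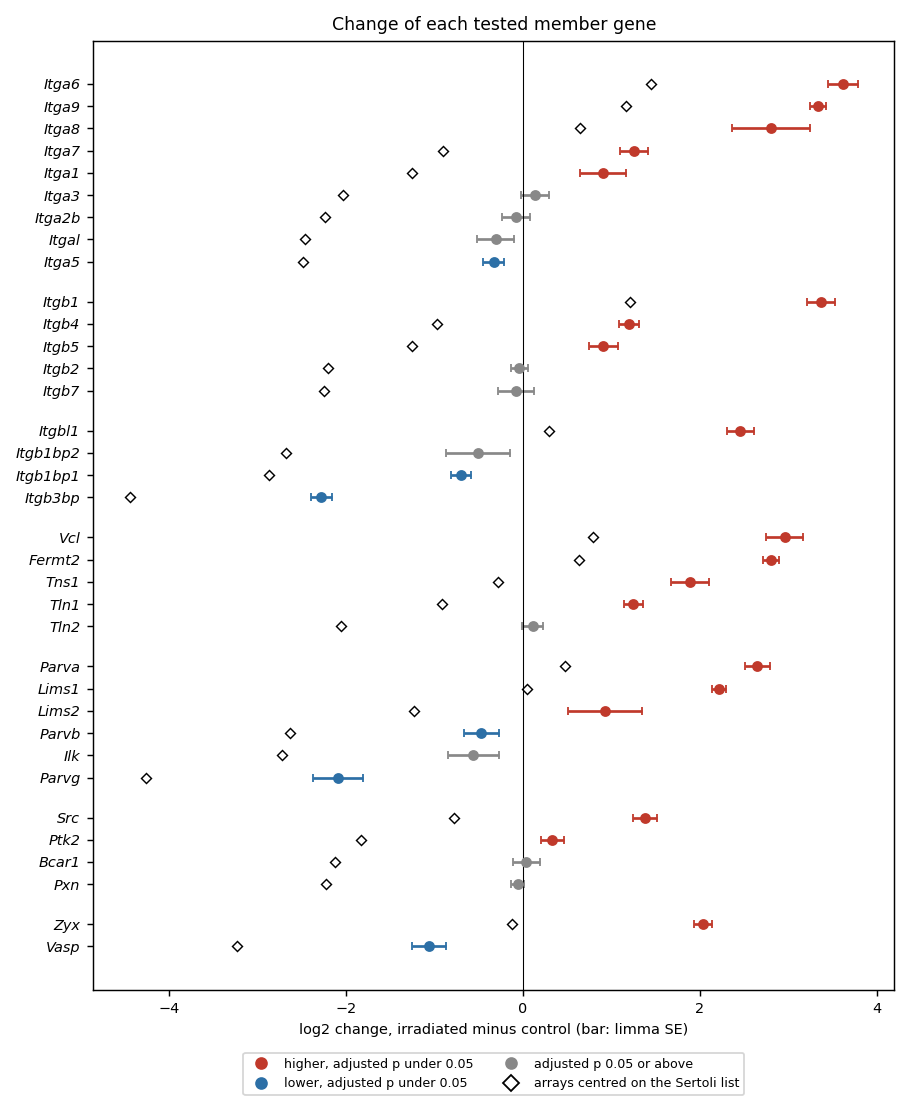
Log2 change, irradiated minus control, of the 35 tested genes with limma's standard error (filled circles, red for higher, blue for lower and grey for an adjusted p of 0.05 or above), and the change after centring arrays on the Sertoli cell list (open diamonds). Itga6, Itgb1 and Itga9 lie to the right of 0 on both scales, and Pxn, Bcar1 and Itgb2 lie near 0 as deposited. Where the text gives only a bound, as for Itga8 and Parvg, the measured change is drawn.

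Itgb1 encodes the beta1 subunit, the partner of most alpha subunits that bind matrix. Its log2 signal (probe set 1368819_at) was 3.15, 3.26, 3.18, 3.39 and 3.07 in the irradiated replicates, and in control arrays the lowest value was -0.85, the median -0.20 and the highest 0.45. All irradiated arrays lay above all control arrays. The change was 3.37 ± 0.16 (SE, adjusted p = 4.18e-12), and a second probe set rose by at least 3.35, since its control mean lay below the array median.

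Vcl, which encodes vinculin, the protein that ties talin to actin, had signals of 4.63, 3.84, 4.47, 3.91 and 4.08 in irradiated arrays, against a lowest of 0.45, a median of 1.30 and a highest of 1.95 in control arrays (1375538_at). Every irradiated array exceeded every control array. The rise was 2.96 ± 0.21 (SE, adjusted p = 7.22e-10). Its other 2 probe sets rose by 2.04 and 1.32.

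Itgb3bp and Vasp had the largest falls among the members above the array median on all 15 arrays. Itgb3bp was named for binding the tail of the beta3 subunit, and its product is a protein of the centromere. It had 0.51, 0.34, 0.64, 0.56 and 0.46 in irradiated arrays, against 2.42, 2.69 and 3.16 as the lowest, median and highest control values (1390604_s_at). The groups did not overlap, and the change was -2.28 ± 0.12 (SE, adjusted p = 1.52e-11), with -2.53 in another probe set. Vasp, an actin regulator of the Ena/VASP family, had 0.81, 0.75, 0.55, 1.04 and 1.06 in irradiated arrays, against 1.51, 1.74 and 2.87 in control arrays, again without overlap. It changed by -1.06 ± 0.19 (SE, adjusted p = 8.38e-05). Signals of meiotic germ cell genes moved the same way: the spermatocyte list summed to 0.963 to 1.27 in irradiated against 79.8 to 119 in control arrays, and its part in these falls was not tested.

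The promoter windows of these 4 genes are printed below. The genes had the largest rises and falls among members above the array median on all arrays and with 1 promoter entry. So few windows cannot tie a motif to the direction of a change. Each window runs from 250 bases before to 50 after the gene's start in RefSeq's annotation of the build GRCr8, and is printed 5′ to 3′ on the gene's strand. Capitals mark matches on either strand to GGGCGG (the GC box), CATTCC (the M-CAT element), TATAAA (the TATA box) or the CArG box, and where matches overlap, as 2 GC boxes do in Vcl, they form 1 run.
Itgb1 (chr19:73602027-73602326, plus strand): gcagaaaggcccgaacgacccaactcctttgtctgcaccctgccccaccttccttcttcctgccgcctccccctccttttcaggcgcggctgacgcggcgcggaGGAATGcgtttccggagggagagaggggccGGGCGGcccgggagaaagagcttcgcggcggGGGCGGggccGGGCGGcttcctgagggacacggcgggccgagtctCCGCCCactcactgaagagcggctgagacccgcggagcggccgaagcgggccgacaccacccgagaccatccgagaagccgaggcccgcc
Vcl (chr15:3404751-3405050, minus strand): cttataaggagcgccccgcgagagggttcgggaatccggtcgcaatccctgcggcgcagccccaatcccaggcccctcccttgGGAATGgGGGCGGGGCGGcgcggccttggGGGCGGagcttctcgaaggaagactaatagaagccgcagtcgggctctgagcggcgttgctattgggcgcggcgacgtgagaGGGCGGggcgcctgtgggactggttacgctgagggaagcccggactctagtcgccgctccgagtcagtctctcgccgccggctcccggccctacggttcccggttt
Itgb3bp (chr5:119640925-119641224, minus strand): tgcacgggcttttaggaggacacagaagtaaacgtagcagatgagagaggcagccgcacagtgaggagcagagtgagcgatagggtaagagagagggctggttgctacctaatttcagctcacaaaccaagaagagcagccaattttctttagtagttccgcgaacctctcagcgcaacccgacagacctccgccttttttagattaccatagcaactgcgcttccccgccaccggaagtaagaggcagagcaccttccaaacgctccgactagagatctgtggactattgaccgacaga
Vasp (chr1:88052906-88053205, minus strand): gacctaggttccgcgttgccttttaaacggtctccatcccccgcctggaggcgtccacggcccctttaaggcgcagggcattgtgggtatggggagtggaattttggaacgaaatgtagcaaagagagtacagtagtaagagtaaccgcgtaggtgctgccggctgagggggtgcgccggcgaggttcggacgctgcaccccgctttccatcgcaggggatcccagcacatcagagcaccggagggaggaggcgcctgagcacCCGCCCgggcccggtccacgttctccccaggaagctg
The windows of Itgb1 and Vcl each held 4 GC boxes and 1 M-CAT element, that of Vasp held 1 GC box, and that of Itgb3bp held none of the 4 motifs. Promoters were found for 31 of the 42 genes. A GC box stood in those of 17 genes (54.8%), against 33.1% of all promoters in the table, and an M-CAT element in those of 7 (22.6%) against 14.2%. The TATA box was found in 3 (9.68%, against 14.2%) and the CArG box in 1 (3.23%, against 1.64%). Of the 12 rising genes with a promoter, 6 held a GC box and 4 an M-CAT element, beside 17 and 7 of all 31 members with a promoter. A member gene counts if any of its promoters matches (36 promoters in all), while all promoters in the table are counted singly. The shares thus have unlike units, and a match describes the letters only.

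Among alpha subunit genes, 9 of 12 were tested, 5 rose, 1 fell and 3 did not pass, with a median change of 0.91. Itga6 encodes a laminin-binding subunit that pairs with beta1 or beta4. Its signals were 2.59, 2.23, 2.86, 2.29 and 2.68 in irradiated arrays, against a lowest of -1.60, a median of -1.13 and a highest of -0.65 in control arrays (1383240_at). The groups were far apart, with a change of 3.62 ± 0.17 (SE, adjusted p = 2.97e-12). Itga9, whose product binds tenascin and other ligands with beta1, had 1.70, 1.50, 1.43, 1.57 and 1.38 in irradiated arrays and was dim in every control array, where it ranged over -2.12, -1.83 and -1.58 (lowest, median, highest). It was at least 7.9-fold higher in irradiated testes (adjusted p = 2.3e-15).

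Itga8, the receptor subunit for nephronectin, had -0.84, -1.34, -0.98, -1.04 and -1.11 in irradiated arrays, all just above the array median, and was dim in every control array (-5.58, -3.94 and -1.95 as lowest, median and highest). It was at least 1.32-fold higher. The adjusted p of 1.57e-05 rests on control values under the array median. Itga7, a laminin receptor subunit best known from muscle, had -0.34, -0.46, -0.84, -0.47 and -0.25 in irradiated arrays, against -2.20, -1.74 and -1.08 in control arrays (lowest, median, highest). It did not overlap between groups and rose by at least 0.96 on the log2 scale, since the control mean lay below the array median (adjusted p = 1.26e-06). Itga1, a collagen receptor subunit, had 0.35 in irradiated replicate 1 but -1.26, -1.02, -1.42 and -1.24 in the others, against -2.53, -1.83 and -1.14 in control arrays. The groups overlapped, and the rise was 0.52 with values held at the array median (adjusted p = 0.00352 for measured values). Its measured change was 0.91 with all arrays and 0.59 without irradiated replicate 1 (adjusted p = 0.00829). With values held at the array median its change was then 0.20, beside 0.16 for a probe set dim on all arrays.

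Itga5, the alpha subunit of the classical fibronectin receptor, had -0.84, -1.29, -0.98, -1.31 and -0.87 in irradiated arrays, against -1.07, -0.72 and -0.44 in control arrays (lowest, median, highest). The groups overlapped, and it fell by 0.33 (change -0.33 ± 0.12, SE, adjusted p = 0.0145). This call was lost without irradiated replicate 2 or 4 (adjusted p = 0.0513 and 0.0545). Itga3, another laminin-binding subunit, had a change of 0.14 ± 0.16 (adjusted p = 0.436), with irradiated values from -0.17 to 0.68 inside or close to the control range of -0.29 to 0.56. The platelet subunit gene Itga2b did not pass (adjusted p = 0.67), its change being -0.08 in measured values and 0.08 with values held at the array median, with values from -1.86 to -1.05 in irradiated and -2.01 to -1.03 in control arrays. Of the platelet marker list 1 gene rose and 4 fell among 5 tested, where 47.7% of all genes tested rose and 37.9% fell. Of the falls, 3 were in genes dim in every irradiated array, which passed the filter only through control arrays.

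Beta subunit genes were tested in 5 of 7 cases, of which 3 rose and 2 did not pass (limma), with a median change of 0.91. Besides Itgb1, Itgb4, the partner of alpha6 in hemidesmosomes, had 0.63, 0.42, 0.23, 0.19 and 0.29 in irradiated arrays, against -1.25, -0.81 and -0.59 in control arrays (lowest, median, highest). The groups did not overlap and the rise was 1.20 ± 0.11 (SE, adjusted p = 2.77e-08). Itgb5, which pairs with alpha v to bind vitronectin, had 0.65, 0.39, 0.44, 0.83 and 0.59 in irradiated arrays, against -0.91, -0.27 and 0.18. It rose by 0.91 ± 0.16 (SE, adjusted p = 4.02e-05) without overlap, and by 0.45 in another probe set.

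Itgb2, Itgal and Itgb7, known from leukocytes, did not pass, while Itgae, a lymphocyte subunit gene outside the member rule, fell. Itgb2, the beta subunit of leukocyte adhesion receptors, had -0.75, -0.39, -0.64, -0.52 and -0.43 in irradiated arrays, against -0.88, -0.46 and -0.28 in control arrays (lowest, median, highest). The irradiated values lay within the control range, with a change of -0.04 ± 0.10 (adjusted p = 0.684). Itgal, its partner on lymphocytes, changed by -0.31 ± 0.21 (adjusted p = 0.181; -1.59 to -0.81 in irradiated and -1.54 to -0.25 in control arrays), and Itgb7, a subunit of lymphocyte homing receptors, by -0.08 ± 0.20 (adjusted p = 0.7; -1.43 to -0.88 in irradiated and -1.70 to -0.30 in control arrays). Itgam and Itgax, partners of Itgb2 on myeloid cells, were dim on all 15 arrays and not tested, with signals of -3.86 to -1.80 and -2.32 to -1.80 in irradiated arrays and of -4.61 to -3.93 and -6.18 to -3.48 in control arrays. Markers of macrophages and other leukocytes rose in 15 of 17 tested genes and fell in 2, with a median of 2.86 and a summed signal of 36.3 to 41.2 in irradiated against 14 to 18.5 in control arrays. Of these 17 genes, 6 were dim in every control array and passed the filter only through irradiated arrays. The falls were Aif1, with means of -0.02 in irradiated and 3.24 in control arrays, and Ms4a1, dim in every irradiated array. Aif1 had the highest control mean of the list, so that the control sum rests in large part on a gene that fell. After quantile normalization Itgb2 changed by -0.35 (adjusted p = 0.00509) and Itgal by -0.53 (adjusted p = 0.0359).

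Proteins that activate integrins or tie them to actin rose in 4 of 5 tested genes, with a median of 1.89. Fermt2 encodes kindlin-2, the kindlin of most tissues. Its signals were 2.43, 2.17, 2.35, 2.24 and 2.17 in irradiated arrays, against -0.75, -0.55 and -0.29 in control arrays (lowest, median, highest). The rise was 2.81 ± 0.09 (SE, adjusted p = 1.15e-14) without overlap, and another probe set, dim in every control array, was at least 1.41-fold higher. Tns1, which encodes the actin linker tensin-1, had 1.96, 1.19, 1.19, 0.03 and 1.25 in irradiated arrays, against -1.08, -0.78 and -0.39 in control arrays. It rose by 1.89 ± 0.22 (SE, adjusted p = 5.88e-07). Irradiated replicate 4 was its lowest irradiated array and still lay above every control array.

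The talin genes differed. Tln1, the widely expressed talin, had 1.65, 1.40, 1.10, 1.43 and 1.49 in irradiated arrays, against -0.15, 0.18 and 0.42 in control arrays (lowest, median, highest), a rise of 1.25 ± 0.11 (SE, adjusted p = 8.78e-09) without overlap. Tln2 (1392944_at) had 0.99, 1.02, 0.96, 0.68 and 0.80 in irradiated arrays, within the control range of 0.22 to 1.16, and a change of 0.11 ± 0.12 (adjusted p = 0.402). A second Tln2 probe set was dim in every irradiated array and reached the array median on 7 control arrays. It was 1.26-fold lower with values held at the array median, which is no bound. The groups overlapped (adjusted p = 0.0262 over probe sets for measured values).

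The complex of integrin-linked kinase, PINCH and parvin showed no common direction: of 6 genes, all tested, 3 rose, 2 fell and 1 did not pass, with a median of 0.23. Lims1, which encodes PINCH-1, had 2.01, 1.68, 1.87, 1.79 and 1.78 in irradiated arrays, against -0.64, -0.40 and -0.21 in control arrays (lowest, median, highest). It rose by 2.22 ± 0.08 (SE, adjusted p = 1.24e-13). Parva, the alpha-parvin gene, had 1.16, 1.01, 1.13, 1.16 and 1.25 in irradiated arrays, against -2.16, -1.52 and -1.07, where 4 of 10 control arrays reached the array median. It rose by at least 2.54 (adjusted p = 1.01e-11), and neither gene overlapped between groups.

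Ilk, the kinase-like scaffold that joins PINCH and parvin, had 1.23, 1.27, 0.98, -1.02 and 1.34 in irradiated arrays, against 1.03, 1.36 and 1.57 in control arrays (lowest, median, highest). A single irradiated array, replicate 4, lay far below the rest. The change was -0.56 ± 0.29 (adjusted p = 0.0821), -0.11 without that array (adjusted p = 0.336) and -0.70 without irradiated replicate 5 (adjusted p = 0.0445). With arrays centred on their median Ilk changed by -0.71 (adjusted p = 0.0252) and after quantile normalization by -0.80 (adjusted p = 0.0127).

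Parvg, the parvin of blood cells, had -1.94, -4.07, -1.96, -3.44 and -3.36 in irradiated arrays, dim in every one, and had -1.08, -0.88 and -0.49 in control arrays (lowest, median, highest), so that the groups did not overlap and it was at least 1.36-fold lower (adjusted p = 2.31e-06). Lims2, which encodes PINCH-2, had -1.36, -1.10, -1.38, -1.01 and -0.72 in irradiated arrays, against -4.77, -1.80 and -1.39. It rose in measured values (adjusted p = 0.0463), and by 0.37 with values held at the array median, which 3 irradiated and 2 control arrays reached. The lowest irradiated and highest control arrays lay at -1.38 and -1.39. Leaving out control replicate 2, 4, 5, 7 or 9 or any 1 irradiated array took this call away, with adjusted p-values from 0.051 to 0.103. Lims2 also missed the threshold with arrays centred on their median (adjusted p = 0.0905), after quantile normalization (0.103) and with no filter (0.0606).

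Parvb, the beta-parvin gene, had 0.15, -0.23, -0.45, 0.02 and -0.38 in irradiated arrays, against -0.12, 0.09 and 1.21 in control arrays (1389919_at; lowest, median, highest). The groups overlapped, and it fell by 0.47 (change -0.47 ± 0.20, SE, adjusted p = 0.04). The call was lost without control replicate 4, 7 or 10 or irradiated replicate 2, 3 or 5 (adjusted p from 0.0592 to 0.103) and with no filter (0.0537), and the gene's second tested probe set rose.

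Signalling kinases and adaptors had a median change of 0.19, near the 0.20 of all genes tested: 2 of 4 tested genes rose and 2 did not pass. Src, the tyrosine kinase that acts with focal adhesion kinase, had 0.55, 0.49, 0.39, -0.02 and 0.38 in irradiated arrays, against -1.38, -1.07 and -0.51 in control arrays (1389030_a_at; lowest, median, highest). It rose by 1.38 ± 0.14 (SE, adjusted p = 1e-07) without overlap. Ptk2, the focal adhesion kinase gene, had 1.41, 1.08, 1.29, 1.16 and 1.31 in irradiated arrays, against 0.38, 1.02 and 1.15. The groups overlapped slightly, and the rise was 0.33 ± 0.13 (SE, adjusted p = 0.0244). It was lost without irradiated replicate 1 or 5 (adjusted p = 0.0667 and 0.0512), with arrays centred on their median (0.18, adjusted p = 0.225) and after quantile normalization (0.06, adjusted p = 0.651).

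The adaptor genes did not pass the test. Pxn, which encodes paxillin, had 1.82, 1.65, 1.69, 1.67 and 1.59 in irradiated arrays, against 1.59, 1.75 and 1.86 in control arrays (lowest, median, highest). No irradiated value lay outside the control range, and the change was -0.06 ± 0.07 (adjusted p = 0.416). Bcar1, the p130Cas gene, changed by 0.04 ± 0.15 (adjusted p = 0.796), with irradiated values from -0.30 to 0.52 and control values from -0.26 to 0.44. With arrays centred on their median Pxn changed by -0.22 (adjusted p = 0.0113), and after quantile normalization by -0.24 (adjusted p = 0.00272).

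Zyx encodes zyxin, which gathers at adhesions under tension and recruits VASP. Its signals were 3.63, 3.38, 3.31, 3.44 and 3.33 in irradiated arrays, against 1.10, 1.38 and 1.66 in control arrays (lowest, median, highest). The rise was 2.04 ± 0.10 (SE, adjusted p = 3.64e-12) without overlap, while Vasp fell. On the scale centred on the Sertoli cell list the change of Zyx was -0.12 (adjusted p = 0.302).

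Of the genes that carry the integrin name without encoding a subunit, 1 rose, 2 fell and 1 did not pass. Itgbl1, a secreted protein with repeats like those of beta subunits, had 0.36, 0.41, 0.45, 0.57 and 0.76 in irradiated arrays and was dim in every control array (-2.39, -2.01 and -1.47 as lowest, median and highest), at least 3.93-fold higher in irradiated testes (adjusted p = 8.18e-11). Itgb1bp1 encodes ICAP-1, which competes with talin for the beta1 tail. It had 0.41, 0.27, 0.17, 0.13 and 0.08 in irradiated arrays, against 0.58, 0.93 and 1.20 in control arrays (lowest, median, highest), a change of -0.70 ± 0.11 (SE, adjusted p = 2e-05) without overlap. Itgb1bp2, the melusin gene of striated muscle, was dim in every irradiated array and reached the array median on 5 of 10 control arrays, which gives no size of change (adjusted p = 0.192, and 0.00118 without control replicate 9).

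The 7 genes that did not pass the filter were Fermt3, Itga11, Itgam, Itgax, Itgb3, Itgb6 and Ptk2b. Itga11 and Itgb6 were dim on all arrays. Itgb3, the beta subunit of platelets and of vitronectin receptors, reached the array median on 3 irradiated and 1 control array, with values of -1.37 to -0.95 in irradiated and -2.76 to -1.54 in control arrays. Fermt3, the kindlin of blood cells, reached it on 1 irradiated and no control array, and Ptk2b on 1 array of each group. With no filter, 22 member genes rose and 5 fell.

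Several probe sets were tested for 10 genes, of which 6 had all of them called in the same direction, while 2 had calls in opposite directions and 2 had a mix of passing and not. Itga6 had 3 rising probe sets (by 3.62 and 1.41, and at least 4.45-fold for one dim in every control array) and 1 that fell, 1371185_at, which had -1.70, -1.20, -2.07, -1.35 and -1.64 in irradiated arrays, against -1.50, -1.03 and -0.74 in control arrays (lowest, median, highest). It was 1.18-fold lower with values held at the array median, since its irradiated mean lay below that median (adjusted p = 0.00277 over probe sets for measured values). The groups overlapped. Parvb had 1388891_at rising by at least 1.00 (adjusted p = 0.000415) beside the fall of 1389919_at. Its mean over probe sets changed by 0.42 (adjusted p = 0.039). Src had 2 rising probe sets (1.55 and 1.38) and 1 with a change of -0.15 ± 0.16 (adjusted p = 0.387), whose group means were both under the array median. Tns1 agreed in direction but not in size, since 1371954_at rose by at least 3.82 and 1371361_at by 1.89.

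**Figure D3:**
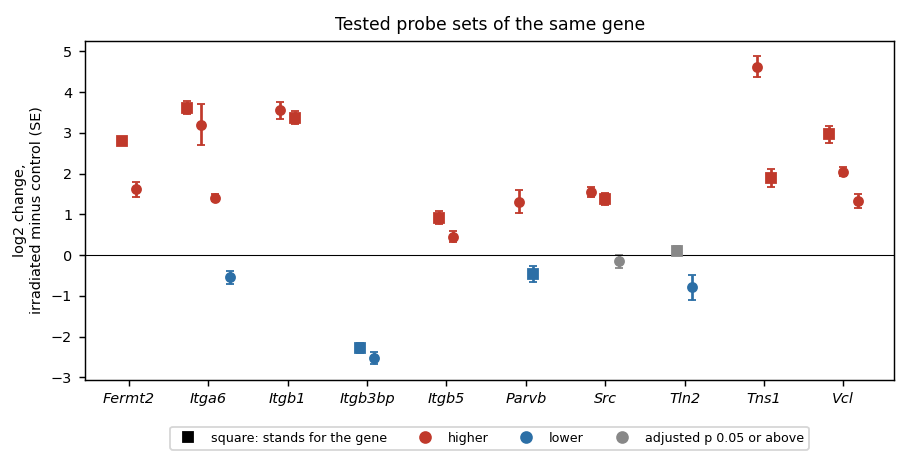
Log2 change with limma's standard error (vertical axis) of each tested probe set of the 10 genes with several, with a square for the probe set that stands for the gene. The probe sets of Itgb1 lie together at 3.37 and 3.55, and those of Itga6 run from -0.55 to 3.62. Changes are drawn as measured, and with values held at the array median the lowest Itga6 probe set changed by -0.24.

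Changes were also compared between related genes. Of 16 pairs listed, 9 had both genes tested, and the log2 difference between the 2 genes was compared within each array, so that any constant added to an array drops out. All 9 passed an exact permutation test over all 3003 regroupings of the samples (2-sided, Benjamini-Hochberg over the 9 pairs). Of all single genes tested 85.6% changed, and the share of unrelated pairs that would pass was not computed. Parva rose by 3.12 more than Parvb and Itgb1 by 3.42 more than Itgb2, each with an adjusted exact permutation p of 0.000375, from a raw p of 0.000333, the smallest possible. The first of these rests on the Parvb probe set that fell, and with probe sets of a gene averaged Parva exceeded Parvb by 2.23. Itga6 exceeded Itga3 by 3.48 and Itga7 by 2.36, Itgb1 exceeded Itgb4 by 2.18, Zyx exceeded Vasp by 3.10 and Tln1 exceeded Tln2 by 1.14, with the same adjusted exact permutation p. With probe sets averaged, Itga6 exceeded Itga3 by 1.78 and Itga7 by 0.65 (adjusted exact permutation p = 0.000428 and 0.0127). Parva and Parvg differed in their change by 4.74 in measured values and by 2.99 with values held at the array median. Parvg passed the filter only through control arrays, and Parva also needed irradiated arrays. The difference of this pair, and its pass in the permutation test, are thus partly built in by the filter. Through Parva the same holds in part for Parva and Parvb. Lims1 exceeded Lims2 by 1.29 in measured values (adjusted exact permutation p = 0.00866) and by 1.85 with values held at the array median, since the control mean of Lims2 lay below it.

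**Figure D4:**
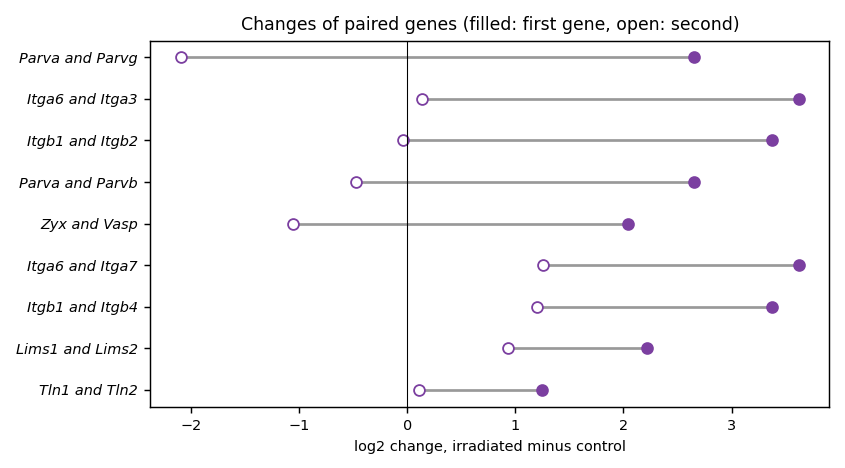
Log2 changes, irradiated minus control (horizontal axis), of the 9 pairs, with a filled circle for the gene named first and an open circle for the gene named second. In Zyx and Vasp, Parva and Parvb, and Parva and Parvg the circles lie on opposite sides of 0, for Parvb with the probe set 1389919_at, while its other tested probe set rose. Changes are drawn as measured, not as bounds.

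Other genes of the pathway, in 3 lists chosen with earlier results of these data known, rose in 86 and fell in 18 of 113 tested. Their median change was 1.73. Beside each list, 47.7% of all genes tested rose and 37.9% fell (85.6% in either direction), with a median of 0.20, so that a call by itself says little. On the Sertoli-centred scale 31 were higher and 60 lower. Integrin ligands and matrix receptors rose in 32 of 36 tested genes and fell in 2, with a median of 2.52. The laminin gene Lamb2 was at least 10.6-fold, the adhesive plasma and matrix protein gene Vtn at least 4.61-fold and the collagen gene Col6a2 at least 4.72-fold higher. Lamb3, a chain of the laminin of epithelial anchoring, changed by at most -1.55, and Thbs2, the other gene counted as a fall, had both means under the array median, which gives no direction (-0.50 measured, 0.07 with values held at the median). Itgav, the alpha v partner of Itgb5, was at least 5.97-fold higher (adjusted p = 9.51e-10), and Itgae, a lymphocyte subunit, fell by 1.69 on the log2 scale (a change of -1.69 ± 0.16, SE, adjusted p = 2.91e-08).

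Other adaptors and actin links rose in 23 of 35 tested genes and fell in 8, with a median of 1.40. Trip6, a relative of zyxin, rose by at least 3.62, tensin-2 (Tns2) was at least 5.2-fold higher and Sorbs2 rose by 3.37 ± 0.12 (SE). Lpp, another zyxin relative, went the other way, with a log2 signal of -1.08 ± 0.18 in irradiated (SD, n = 5) and 3.51 ± 0.09 in control testes (SD, n = 10; limma adjusted p = 2.17e-17), and the membrane-actin linker Rdx had a change of -2.44 ± 0.14. Other signalling genes rose in 31 of 42 and fell in 8, with a median of 1.64. Rac1, a GTPase of cell spreading, rose by 2.78 and Akt1 by 2.79, and Asap2 was at least 1.84-fold higher. Git1, a scaffold that binds paxillin and focal adhesion kinase, had 0.79 ± 0.11 in irradiated (SD, n = 5) and 3.82 ± 0.12 in control testes (SD, n = 10; limma adjusted p = 1.79e-15), and Asap1 changed by -1.26 ± 0.12.

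Leydig cell markers rose in 12 of 12 tested genes (median 3.34) and endothelial markers in 10 of 12, with 2 lower (median 1.69). Of all genes tested, 47.7% rose and 37.9% fell. Among the 12 endothelial genes, 5 were dim in every control array and passed the filter only through irradiated arrays. Icam2, counted as lower, had both means under the array median, which gives no direction (-2.02 measured). Spermatogonial markers went both ways, 2 higher and 3 lower of 8 (median -0.19). Their summed signals were 132 to 154 in irradiated against 12.3 to 16.5 in control arrays for Leydig cells, 7.68 to 8.87 against 2.80 to 3.80 for endothelium and 7.70 to 10.1 against 7.95 to 10.3 for spermatogonia. The platelet list summed to 3.66 to 4.74 against 2.33 to 2.91, although 4 of its 5 tested genes fell, 3 of them dim in every irradiated array. The higher sum came through Pf4 alone, with a mean of 1.39 in irradiated arrays and a control mean below the array median. The part of these cells in the changes of the adhesion genes was not tested.

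**Figure D5:**
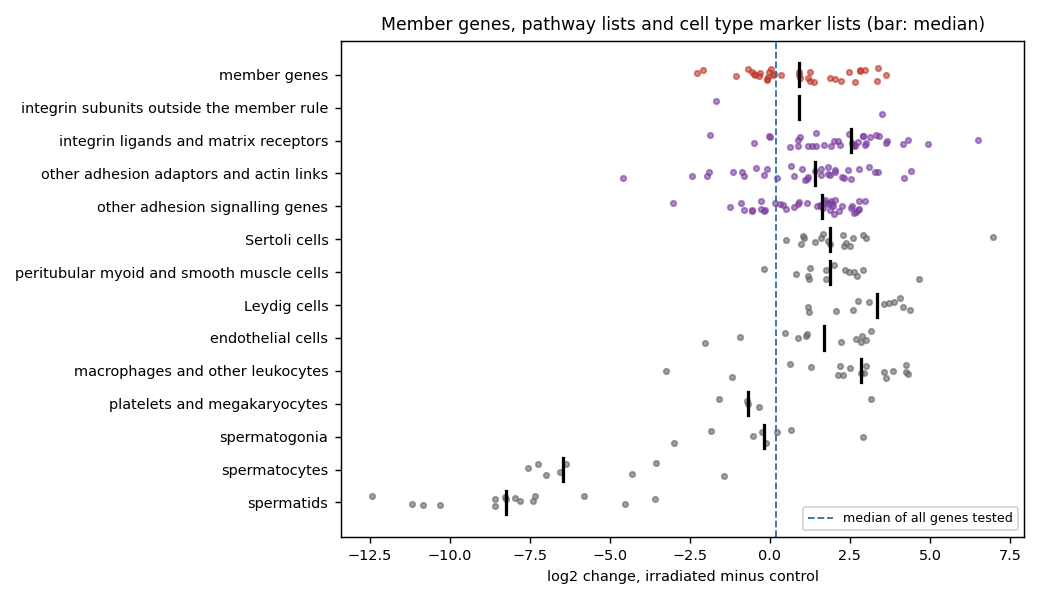
Log2 change, irradiated minus control (horizontal axis), of the member genes (red), the lists of related pathway genes (purple) and cell type markers (grey), 1 point per gene, with a black bar at each median and a dashed line at the median of all genes tested. The member genes have a median of 0.91, the integrin ligands 2.52 and the Sertoli cell markers 1.88. Changes are drawn as measured, also for genes whose change the text gives as a bound.

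Replicates were close together: the median SD of the 49 tested member probe sets was 0.21 over irradiated and 0.30 over control arrays, beside 0.19 and 0.26 for all probe sets tested.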

How the data were processed

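The authors deposited log2 values of 31099 probe sets on 15 arrays, which rest on MAS5 signals per the submitters' processing notes. How they were scaled and put on a log scale is not stated there, and base 2 was inferred from their range. The number of arrays limits the precision. No array column was left unused (0 columns). Probe sets were named from the platform annotation of 2016, and 20826 had 1 symbol, 436 several and 9780 none in the table used.

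The comparison of irradiated with control arrays used limma 3.58.1 (R 4.3.3; lmFit and eBayes without covariates, 2-sided), tested on simulated data. The 57 control probe sets were left out, and 18711 of 31042 others were tested. P-values were adjusted by Benjamini-Hochberg over these, or over 10841 genes. Where a group's mean, but not each of its arrays, was under the array median, the change was taken with values held at no less than the array median and is given as "at least" or "at most". In Itga1, Lims2 and further probe sets of Itga6 and Tln2, arrays of the higher group were lifted as well, which gives no bound. A probe set dim on all arrays comes out at 0.16, because array medians differ between the groups. Every tested member is named; those described array by array are, for each role, up to 4 rises and 3 falls, members that did not pass and genes whose probe sets disagreed. In each pathway list up to 3 rises and 2 falls are named. Equal replicate numbers did not pair the groups. Alternatives were no filter or a stricter one, other scalings, a pseudocount of 1, a floor, a replicate block, another variance model, averaged probe sets and left-out arrays. The members and lists were chosen with earlier results of these data known.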

Additional observations from a re-analysis of the deposited data

Results flagged for a closer look

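Each tested member probe set was examined for a single array far from the others of its group, by a gap to the nearest other array that, divided by the range of the group, passed Dixon's critical value. This found 7 arrays in 98 groups, and for normally distributed values the nominal rate of that criterion is about 1 in 20 groups. In irradiated arrays, Ilk had -1.02 in replicate 4 against 0.98 to 1.34 in the others, Itga1 had 0.35 in replicate 1 against -1.42 to -1.02, the Vcl probe set 1398476_at had 0.79 in replicate 1 against 0.11 to 0.29, and the Tln2 probe set 1375743_at had -2.59 in replicate 5 against -1.72 to -1.62. In control arrays, Itgb1bp2 had -3.92 in replicate 9 against -2.09 to -0.92, Lims2 had -4.77 in replicate 6 against -2.17 to -1.39, and Parva had -2.16 in replicate 1 against -1.65 to -1.07. The values of Tln2, Itgb1bp2, Lims2 and Parva lay below their array's median, and those of Ilk, Itga1 and Vcl did not.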

How the results depend on the processing

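Arrays without detection calls leave the level of dim probe sets open, and no setting below removes that limit. Centring on the Sertoli cell list gave 8 higher and 34 lower member probe sets, 6 higher and 24 lower member genes, a member median of -1.26, and 31 higher and 60 lower pathway genes. It turned the changes of Bcar1 (-2.12), Itga1 (-1.26), Itga3 (-2.03), Itga7 (-0.90), Itgb4 (-0.97), Itgb5 (-1.25), Lims2 (-1.23), Ptk2 (-1.83), Src (-0.78), Tln1 (-0.91), Tln2 (-2.06), Tns1 (-0.28) and Zyx (-0.12); the setting lowers every change by the mean rise of 17 Sertoli genes. The filter at the 75th percentile left 19 higher and 5 lower probe sets, with fewer tested, and quantile normalization gave 10 lower genes, with Ilk, Itgal, Itgb2 and Pxn gained and Lims2 and Ptk2 lost. With arrays centred on their median, Ilk and Pxn were gained and Lims2 and Ptk2 lost. The member median was 0.75 with arrays centred on their median, 0.55 after quantile normalization, 1.22 with the stricter filter, 0.53 with no filter, 0.37 with the floor, 0.22 with the pseudocount, 0.68 with averaged probe sets and 0.64 without control replicates 6, 7 and 8. In the same order, the median of all genes tested was 0.05, -0.06, 0.18, 0.08, 0.18, 0.09, 0.22 and 0.19. Other signs turned in genes that did not pass: Bcar1 (-0.11 median-centred, -0.32 quantile, -0.01 and -0.05 without irradiated replicate 1 or 2), Itga2b (0.08 with the floor, 0.01 without irradiated replicate 2), Itga3 (-0.02 median-centred, -0.23 quantile), Itgb1bp2 (0.04 with the floor), Itgb2 (0.01 without irradiated replicate 1) and Tln2 (-0.04 median-centred, -0.21 quantile, -0.34 averaged). Averaging also turned Parvb (0.42). Except where stated, the cause was not tested.

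Leaving out 1 array gave 27 to 29 higher and 7 to 10 lower probe sets, 17 to 19 higher and 4 to 7 lower genes, a member median of 0.59 to 0.93, 85 to 87 higher and 17 to 18 lower pathway genes, 9 pairs past the threshold each time, and changes of -0.05 to 0.15 for Bcar1, -0.19 to 0.01 for Itga2b and -0.09 to 0.01 for Itgb2. The 9 pairs kept their call in every alternative run for them.

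Same-numbered arrays had deviation correlations of -0.0473, 0.0366, 0.0151, -0.0377 and 0.0692, so that they share only a number. With the replicate block on replicates 1 to 5 of each group, 28 probe sets and 18 genes were higher, 7 and 6 lower, the median was 0.65, and Bcar1 (-0.12) and Itgb2 (0.07) turned. Itga5 (-0.25, adjusted p = 0.148) and Ptk2 (0.16, adjusted p = 0.178) lost their call, and Itgb1bp2 gained one (adjusted p = 0.0106). The same 10 arrays without the number, chosen after seeing the data, gave 28 and 18 higher, 7 and 5 lower, a median of 0.65, and -0.12 and 0.07 for these genes. The change of Itga1 with values held at the array median, without irradiated replicate 1, was also chosen after seeing the data.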
